A study of Mus musculus with 21 samples.

Results

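The mitochondrial carrier family SLC25 was followed here as a set of 44 genes among the 40838 genes counted in mouse embryonic stem cells (ESCs), the pluripotent cells of the early embryo grown in culture. The members were all genes whose symbol is Slc25a followed by a number, except Slc25a11, Slc25a12 and Slc25a13. Poly(A) RNA had been sequenced from 21 libraries in 8 groups, all taken after 48 h in medium with 0.2 mM pyruvate and 10% dialyzed serum. In SL2i medium, taken to hold serum, the self-renewal cytokine LIF and the 2i inhibitors, which block the kinases GSK3B and MEK, there were SLC16A1 clone 1, SLC16A1 clone 2 and chr8A cells (2 libraries each). In SL medium, taken to hold serum and LIF without the inhibitors, there were the same SLC16A1 clone 1, SLC16A1 clone 2 and chr8A lines (3 libraries each). A separate table held SL LbNOX cells and SL vector cells (3 libraries each). LbNOX, an NADH oxidase from a bacterium, makes NAD+ and water from NADH and oxygen, and the vector cells are its control. SLC16A1 is the gene of the plasma membrane transporter MCT1, which carries pyruvate and lactate. chr8A was read as the control line of the clones. The sources used here do not say how the clones were altered or what chr8A carries. Each clone is a single line, and the libraries of a group are replicates of the same line. A p-value therefore measures only the spread between libraries within groups, which may be technical. In the table with both media, all groups shared one estimate of that spread, because the SL2i groups have 2 libraries each.

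Carriers of this family sit mostly in the inner mitochondrial membrane, which is otherwise closed to charged metabolites. Each exchanges or imports a small set of solutes, such as ADP for ATP, phosphate, citrate, amino acids, acylcarnitines, nucleotides, cofactors or iron. Their genes are encoded in the nucleus, and the proteins reach the inner membrane by a dedicated import route. The family as a whole, which includes genes outside these 44 members, helps to link glycolysis to respiration. It also helps to move citrate, one-carbon units and reducing power between mitochondria and cytosol.

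Total counts per library were 9784408 to 10908368 in SL2i, 15802072 to 30145771 in the SL libraries of the same table and 16521594 to 30008895 in the table of LbNOX and vector cells. Every SL2i library was shallower than every SL library, so depth and medium cannot be told apart by design. Transcripts of Slc16a1 itself were lower in both clones. In SL they stood at 162 to 182 CPM (normalized counts scaled to library size) in clone 1 and 91.4 to 96.5 CPM in clone 2, against 195 to 201 CPM in chr8A, and the mRNA does not measure the transporter. The summed level of 10 ESC markers was 8675 to 9099 CPM in SL2i and 3655 to 4055 CPM in SL. Markers of other cell types were lower in SL2i. Their sums were 5.53 to 7.34 against 40.2 to 50.8 CPM for 9 fibroblast genes, 72.2 to 129 against 564 to 780 CPM for 7 trophoblast genes, 56.2 to 66.0 against 325 to 395 CPM for 4 neural genes, and 5.41 to 10.5 against 20.6 to 25.8 CPM for 7 primitive endoderm genes, with SL2i first. Col3a1, Dcn and Postn, fibroblast genes, had no read in any SL2i group. These sums moved with every medium result below, and their part in those results was not tested. In bulk RNA, fewer cells of a type and less RNA per cell cannot be told apart.

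Of the 44 members, 42 passed the filter on low counts in the table with both media and 40 passed in the LbNOX table. Slc25a54, a carrier with little known function, had no read in any library. Slc25a21, the oxodicarboxylate carrier of lysine breakdown, had 0 reads in SL2i in each line, against 11, 5 and 11 reads in SL in chr8A, clone 1 and clone 2. With the shallower SL2i libraries, this difference was not detectable at this depth. Slc25a2 and Slc25a34 passed in the table with both media only through their SL2i libraries, so for these genes a difference was built into passing. Slc25a31 and Slc25a41 were over the cutoff in 9 SL libraries and in 1 SL2i library, so they passed through SL, where they are higher, and their medium differences were partly built in too.

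Levels per length, which allow genes to be set beside each other, put the ADP/ATP and phosphate carriers on top (plot of levels in chr8A). Slc25a5, which encodes the ADP/ATP carrier ANT2 of dividing cells, averaged 448 CPM per kilobase in SL2i chr8A and 443 in SL chr8A. Next stood Slc25a3, the phosphate carrier, with 288 CPM per kilobase in SL2i chr8A and 260 in SL chr8A. Slc25a4, which encodes ANT1, the ADP/ATP carrier known best from heart and muscle, had 85.4 in SL2i chr8A and 226 in SL chr8A. In SL chr8A it came next in order, while in SL2i chr8A Slc25a39, a mitochondrial glutathione carrier, stood between it and Slc25a3 with 94.2 CPM per kilobase. In the other table Slc25a5, Slc25a3 and Slc25a4 held 437, 340 and 145 CPM per kilobase in LbNOX cells and 447, 348 and 142 in vector cells, the same order. At the lower end, 8 members averaged under 1 CPM in SL2i chr8A and 6 in SL chr8A.

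**Figure D1:**
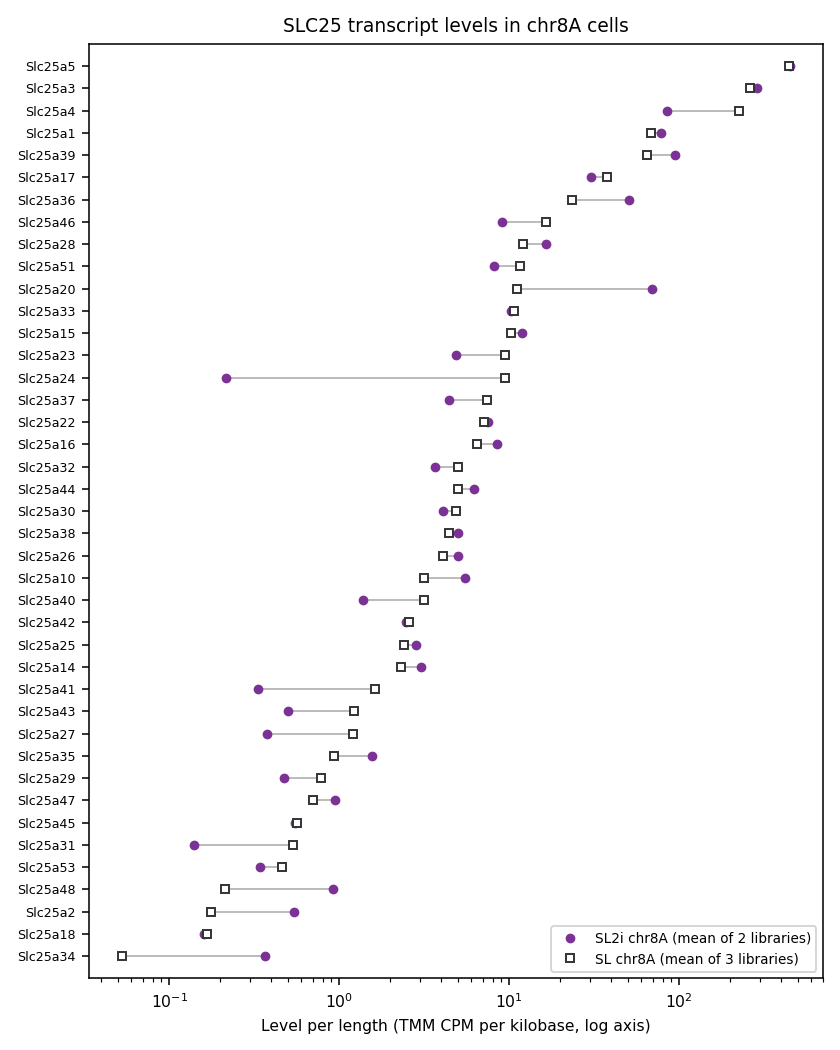
Mean levels of SLC25 members in chr8A cells, in TMM-normalized CPM per kilobase on a log axis, for SL2i (filled circles, 2 libraries) and SL (open squares, 3 libraries); members without a read in SL2i chr8A and 1 member not reported here are left out. Slc25a5 and Slc25a3 lie at the top in both media, Slc25a20 lies to the right in SL2i, and Slc25a24 and Slc25a4 lie to the left.

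The family's total was nearly level while its make-up differed between media. All members together held 2630 to 2697 CPM in SL2i libraries and 2488 to 2604 CPM in SL libraries of the same table. Slc25a3, Slc25a4 and Slc25a5 together made up 42.8% to 44.5% of that sum in SL2i and 50.8% to 54.1% in SL. Slc25a4 alone made up 4.22% to 5.62% in SL2i and 11.5% to 12.5% in SL. The ratio of Slc25a4 to Slc25a5 per length was 0.189 to 0.292 in SL2i and 0.484 to 0.545 in SL, and the ranges did not overlap. These shares were looked at after single genes had been seen and carry no test. They rest partly on Slc25a5, of whose 30-base words 50.1% also occur in other genes, mainly processed copies, so reads may belong to those copies.

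Between SL2i and SL, most members differed in each line. In chr8A, 32 of 42 tested members passed edgeR's quasi-likelihood test at an adjusted p under 0.05 (18 higher, 14 lower), where 72.8% of all 17178 genes passed (36.1% higher, 36.8% lower). In clone 1 it was 34 members (16 higher, 18 lower) beside 73% of all genes (35.9% higher, 37.1% lower), and in clone 2 it was 29 members (13 higher, 16 lower) beside 73.1% (35.8% higher, 37.2% lower). The count of members is therefore no result about the family, since most transcripts differed between these sets of libraries. The median log2 fold change of the members was 0.05 in chr8A, 0.02 in clone 1 and -0.05 in clone 2, and that of all genes lay between -0.01 and 0.00. The 3 lines share no library, and 13 members were higher in all 3 lines and 11 were lower in all 3, where 28.7% and 30.4% of all genes did so. The 13 include Slc25a34, for which a difference was built into passing the filter.

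**Figure D2:**
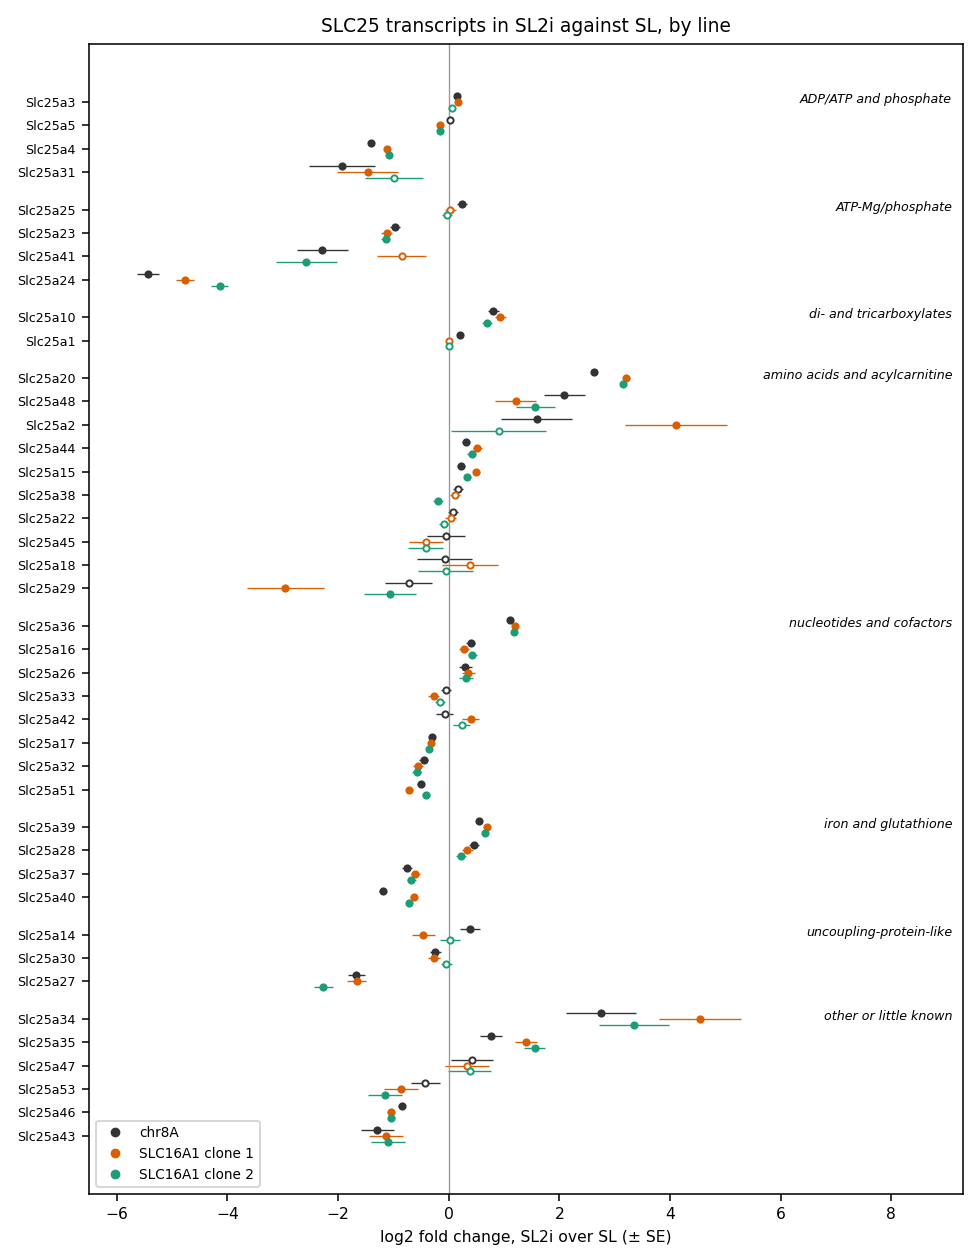
Log2 fold change of SL2i over SL with its standard error for tested SLC25 members except 1 not reported here, grouped by transported solute, in chr8A (dark), SLC16A1 clone 1 (orange) and SLC16A1 clone 2 (green); filled points passed at an adjusted p under 0.05. Slc25a20 lies right of 2.5 and Slc25a24 left of -4 in all 3 lines, while Slc25a4 lies near -1 and Slc25a5 near 0.

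The member with the largest well-counted rise was Slc25a20, the carnitine-acylcarnitine carrier, which brings fatty acyl groups into mitochondria for oxidation. It had 124 and 118 CPM in SL2i chr8A, against 19.9, 18.5 and 20.2 CPM in SL chr8A. Clone 1 had 176 and 172 CPM in SL2i and 20.7, 16.0 and 19.3 CPM in SL, and clone 2 had 181 and 172 CPM in SL2i and 20.7, 19.9 and 19.0 CPM in SL. All SL2i libraries lay far above all SL libraries. The log2 fold change was 2.63 ± 0.059 (SE) in chr8A, 3.21 ± 0.060 in clone 1 and 3.16 ± 0.056 in clone 2, the largest adjusted p being 1.3e-64. Per length, Slc25a20 was 6th in the family in SL2i chr8A and 11th in SL chr8A. Of its 30-base words, 9.23% also occur in other genes.

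The largest fall was that of Slc25a24, a carrier of ATP-Mg against phosphate that is regulated by calcium and sets the adenine nucleotide content of mitochondria. Its level was 0.870 and 0.592 CPM in SL2i chr8A, against 35.0, 30.01 and 31.0 CPM in SL chr8A. In clone 1 it was 1.48 and 1.56 CPM in SL2i and 42.7, 38.4 and 43.0 CPM in SL, and in clone 2 it was 1.78 and 2.02 CPM in SL2i and 32.6, 36.2 and 31.8 CPM in SL. The groups were far apart in each line, with log2 fold changes of -5.43 ± 0.194 in chr8A, -4.76 ± 0.163 in clone 1 and -4.14 ± 0.157 in clone 2 (largest adjusted p = 3.5e-45, edgeR).

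The sequence upstream of Slc25a20 and Slc25a24 is shown because these well-counted genes differed strongly between media in opposite directions, beside that of Slc25a39 and Slc25a40, a pair with related cargo that also moved apart. Each is the 250 bases before the transcription start in RefSeq's GRCm38.p6 annotation, given 5′ to 3′ on the gene's strand, with an ETS motif (CCGGAAG, either strand) in capitals where present.
Slc25a20, chr9:108661886-108662135, plus strand: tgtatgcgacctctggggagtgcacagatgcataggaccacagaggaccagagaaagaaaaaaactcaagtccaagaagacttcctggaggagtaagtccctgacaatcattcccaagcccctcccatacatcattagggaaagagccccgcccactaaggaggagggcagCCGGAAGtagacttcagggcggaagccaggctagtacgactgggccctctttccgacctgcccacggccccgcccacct
Slc25a24, chr3:109122899-109123148, plus strand: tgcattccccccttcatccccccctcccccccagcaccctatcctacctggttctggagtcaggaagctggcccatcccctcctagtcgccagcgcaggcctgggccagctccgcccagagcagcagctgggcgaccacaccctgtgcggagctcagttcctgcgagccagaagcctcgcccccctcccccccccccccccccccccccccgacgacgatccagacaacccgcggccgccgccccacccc
Slc25a39, chr11:102407518-102407767, minus strand: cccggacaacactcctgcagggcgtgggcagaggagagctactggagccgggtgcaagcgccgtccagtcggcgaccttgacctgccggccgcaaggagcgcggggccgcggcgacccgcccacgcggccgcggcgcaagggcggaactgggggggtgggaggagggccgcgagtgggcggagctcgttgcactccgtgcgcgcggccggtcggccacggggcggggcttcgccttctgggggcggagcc
Slc25a40, chr5:8422588-8422837, plus strand: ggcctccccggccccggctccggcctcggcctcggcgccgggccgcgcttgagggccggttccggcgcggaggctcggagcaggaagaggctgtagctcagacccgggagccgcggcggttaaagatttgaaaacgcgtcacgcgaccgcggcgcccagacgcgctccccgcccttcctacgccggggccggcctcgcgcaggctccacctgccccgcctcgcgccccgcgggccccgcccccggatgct

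The Slc25a20 window is 56.8% G and C and holds 8 CpG dinucleotides, and its ETS motif begins at position -79 from the start. Windows of Slc25a24, Slc25a39 and Slc25a40 are 72.8%, 77.2% and 78.0% G and C with 14, 35 and 40 CpG dinucleotides, and these letters do not hold the ETS motif. The median was 57.6% over the 43 windows of the 33 members that had one, and 52.4% over all 32817 windows. A member was counted for a motif if any of its windows held it, while percentages for motifs are shares of all windows. Counts of members and shares of windows differ in unit, so they cannot be compared, and enrichment was not tested. The ETS motif stood in a window of 6 of the 33 members (Slc25a17, Slc25a20, Slc25a3, Slc25a38, Slc25a4 and Slc25a54) and in 6.9% of all windows. An E-box (CACGTG) stood in windows of 6 members and in 6.02% of all windows, and the core letters bound by estrogen-related receptors (AAGGTCA) in that of Slc25a34 alone among the 33 and in 4.08% of all windows. The ATF4 letters TGATGNAA and the palindromic NRF1 motif stood in windows of 0 members and in 3.45% and 0.777% of all windows. A match is a description of letters and not evidence of binding.

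Of the 4 ADP/ATP and phosphate carriers, chr8A had 1 higher and 2 lower, clone 1 had 1 higher and 3 lower, and clone 2 had 2 lower. Slc25a4 fell in all 3 lines. Its level was 115 and 113 CPM in SL2i chr8A, against 305, 309 and 288 CPM in SL chr8A, and in no line did a medium's libraries overlap those of the other (plot of levels per library). The log2 fold change was -1.40 ± 0.039 in chr8A, -1.12 ± 0.039 in clone 1 and -1.08 ± 0.038 in clone 2 (largest adjusted p = 7.7e-48, edgeR). Slc25a5 had 590 and 571 CPM in SL2i chr8A, against 576, 586 and 561 CPM in SL chr8A, with overlapping libraries and a log2 difference of 0.02 (95% interval -0.05 to 0.08). In the clones Slc25a5 fell slightly, by 0.17 ± 0.032 in clone 1 and 0.16 ± 0.032 in clone 2, subject to its shared sequence. Slc25a3 rose by 0.15 ± 0.033 on the log2 scale in chr8A and 0.16 ± 0.033 in clone 1, and its difference in clone 2 was 0.06 (95% interval -0.01 to 0.12). Slc25a31, the ADP/ATP carrier known from sperm, was near the limit of counting with 0.193 and 0.395 CPM in SL2i chr8A, against 1.29, 0.621 and 1.48 CPM in SL chr8A. Having passed the filter through SL, it was called lower in chr8A (-1.92 ± 0.598) and clone 1 (-1.47 ± 0.546) and not in clone 2 (-0.99 ± 0.518, adjusted p = 0.078). The chr8A call ended without SL2i chr8A replicate 1. Its clone 1 call ended without SL replicate 1 or SL2i replicate 1 of that clone, and at equal depth.

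**Figure D3:**
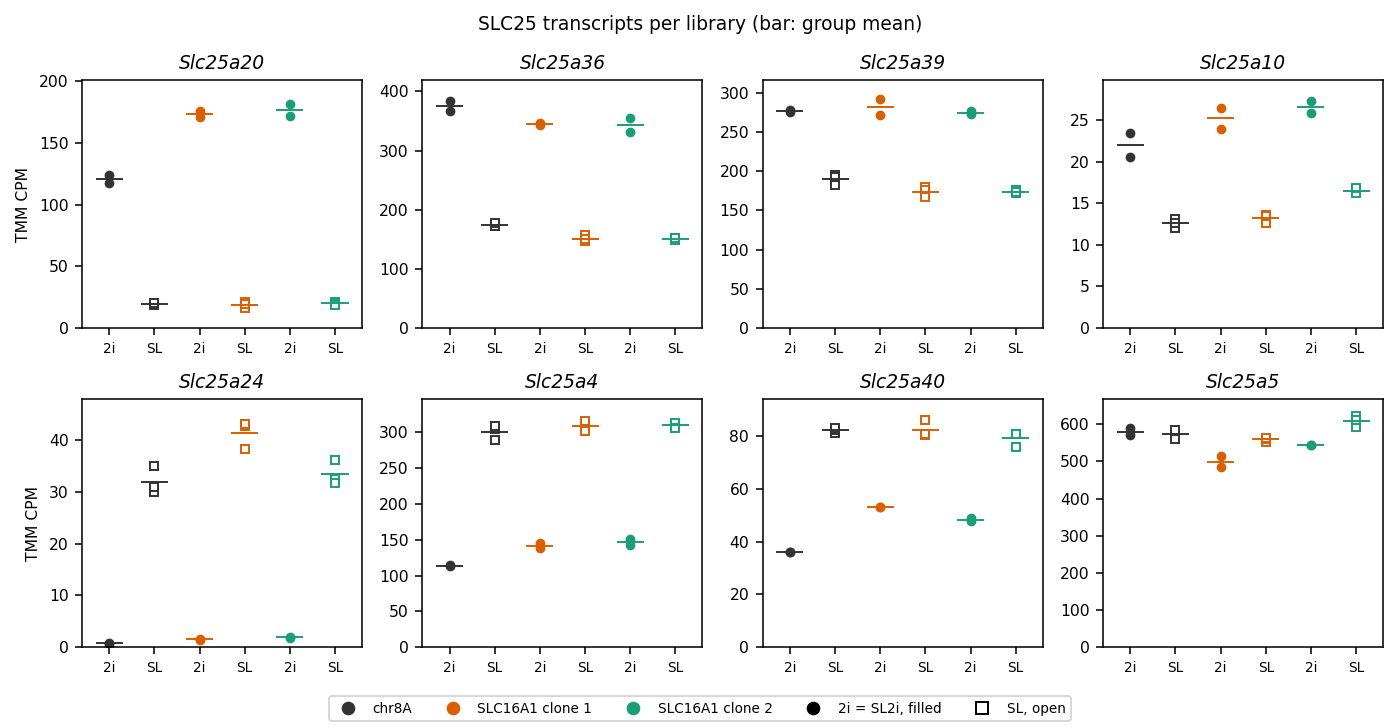
TMM-normalized CPM of 8 SLC25 members in every library, by line and medium (SL2i filled, left; SL open, right; short bar, group mean), on linear axes from 0. Slc25a20, Slc25a36, Slc25a39 and Slc25a10 are higher in SL2i in each line, Slc25a24, Slc25a4 and Slc25a40 are lower, and Slc25a5 overlaps between media in chr8A.

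The other ATP-Mg carriers followed Slc25a24 in part. Slc25a23 fell by 0.96 ± 0.088 in chr8A, 1.12 ± 0.093 in clone 1 and 1.14 ± 0.089 in clone 2 on the log2 scale. It had 20.5 and 16.8 CPM in SL2i chr8A and 35.4, 37.3 and 36.5 CPM in SL chr8A, and 7.31% of its words are shared. Slc25a41, its neighbour on chromosome 17 in RefSeq's gene order, also passed the filter through SL and was called lower in chr8A (-2.29 ± 0.459) and clone 2 (-2.57 ± 0.558), at 0.290 and 0.592 CPM in SL2i chr8A against 1.84, 2.33 and 2.34 CPM in SL chr8A. In clone 1 its value was -0.85 (not passed). Slc25a25, the remaining calcium-regulated member, rose by 0.25 ± 0.085 in chr8A and passed in neither clone.

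For the di- and tricarboxylate carriers the data show one steady rise. Slc25a10, which exchanges malate or succinate for phosphate, had 23.5 and 20.5 CPM in SL2i chr8A, against 12.1, 13.0 and 12.6 CPM in SL chr8A. It rose by 0.81 ± 0.099 on the log2 scale in chr8A, 0.93 ± 0.100 in clone 1 and 0.69 ± 0.092 in clone 2, and 6.37% of its words are shared. Slc25a1, the carrier that exports citrate for lipid synthesis and acetylation, had 127 and 136 CPM in SL2i chr8A, against 114, 118 and 112 CPM in SL chr8A. That rise of 0.20 ± 0.044 passed in chr8A. In the clones the log2 difference of Slc25a1 was 0.00 (95% interval -0.09 to 0.09) and 0.01 (-0.08 to 0.10), with overlapping libraries.

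Of the 10 carriers of amino acids and acylcarnitine, all of them tested, chr8A had 5 higher and 0 lower, clone 1 had 5 higher and 1 lower, and clone 2 had 4 higher and 2 lower. Beside Slc25a20, Slc25a15, the ornithine carrier of the urea cycle, rose by 0.22 ± 0.069, 0.50 ± 0.069 and 0.34 ± 0.067 in chr8A, clone 1 and clone 2. Slc25a44, a carrier of branched-chain amino acids, rose by 0.32 ± 0.079, 0.51 ± 0.079 and 0.41 ± 0.075 in the same order. Slc25a48, known from human cells as a choline carrier, rose from a low base. It had 2.22 and 2.47 CPM in SL2i chr8A, against 0.626, 0.466 and 0.545 CPM in SL chr8A (log2 fold change 2.09 ± 0.376), with 1.21 ± 0.370 in clone 1 and 1.57 ± 0.351 in clone 2. The clone 1 call ended without SL2i clone 1 replicate 2 and at equal depth. Slc25a2, a second ornithine carrier, was called higher in chr8A (1.59 ± 0.646) and clone 1 with few reads. It passed the filter only through SL2i, so a difference was built into its passing. The chr8A call ended without SL2i chr8A replicate 1, without the count filter and with DESeq2. In clone 1 Slc25a2 had 15 reads in SL2i and 2 in SL, a ratio of 20.2 scaled for depth (exact 95% interval 4.71 to 182, covering counting error only). Slc25a29, a carrier of basic amino acids, had 3 reads in SL2i clone 1 and 65 in SL clone 1, 8.03-fold lower when scaled for depth (exact 95% interval 2.63 to 39.9), and it also passed as lower in clone 2 (-1.06 ± 0.472). The glutamate carriers Slc25a18 and Slc25a22 and the little-studied Slc25a45 passed in no line. Slc25a38, which supplies glycine for heme synthesis, passed only as a fall of 0.20 ± 0.088 in clone 2.

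Of 9 nucleotide and cofactor carriers, chr8A had 4 higher and 3 lower, clone 1 had 5 higher and 4 lower, and clone 2 had 4 higher and 3 lower. Slc25a36, which carries pyrimidine nucleotides for mitochondrial DNA and RNA, had 368 and 383 CPM in SL2i chr8A, against 172, 173 and 178 CPM in SL chr8A. Clone 1 had 344 and 347 CPM in SL2i and 146, 157 and 151 CPM in SL, and clone 2 had 332 and 355 CPM in SL2i and 152, 150 and 152 CPM in SL. The libraries of the media were well apart, with log2 fold changes of 1.11 ± 0.034, 1.19 ± 0.036 and 1.19 ± 0.035, and 7.92% of the words of Slc25a36 are shared. Slc25a33, the other pyrimidine carrier, had 26.0 and 21.2 CPM in SL2i chr8A and 23.8, 24.8 and 24.6 CPM in SL chr8A. It differed by -0.05 (95% interval -0.22 to 0.13) in chr8A, fell by 0.27 ± 0.097 in clone 1 and differed by -0.16 (-0.34 to 0.02) in clone 2. Of its words, 13.6% are shared, mainly with an antisense transcript, and the clone 1 call ended without SL2i clone 1 replicate 2.

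Slc25a51, the carrier of NAD+ into mitochondria, was lower in SL2i in each line. It had 37.7 and 36.9 CPM in SL2i chr8A, against 54.7, 52.8 and 51.1 CPM in SL chr8A, a fall of 0.50 ± 0.066, with falls of 0.71 ± 0.069 in clone 1 and 0.41 ± 0.065 in clone 2 (5.46% of words shared). Slc25a32, the folate and FAD carrier, had 20.4 and 23.9 CPM in SL2i chr8A, against 29.5, 29.5 and 31.7 CPM in SL chr8A, and fell by 0.45 ± 0.084, 0.55 ± 0.087 and 0.58 ± 0.082 in chr8A, clone 1 and clone 2. Slc25a17, the peroxisomal carrier of cofactors, also fell in all 3 lines, by 0.31 to 0.35. Slc25a16, linked to coenzyme A, rose by 0.39, 0.28 and 0.42, and Slc25a26, the S-adenosylmethionine carrier, by 0.30, 0.36 and 0.31. Slc25a42, a coenzyme A carrier, passed in clone 1 as a rise of 0.40 ± 0.157.

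The iron and glutathione carriers split into a higher and a lower gene of each kind in all 3 lines. Slc25a39 had 276 and 279 CPM in SL2i chr8A, against 182, 196 and 193 CPM in SL chr8A, and rose by 0.54 ± 0.036, 0.69 ± 0.037 and 0.66 ± 0.036 in chr8A, clone 1 and clone 2. Slc25a40, its close relative and also a glutathione carrier, had 35.9 and 35.8 CPM in SL2i chr8A, against 81.0, 82.3 and 83.0 CPM in SL chr8A, and fell by 1.19 ± 0.060, 0.63 ± 0.057 and 0.72 ± 0.056. For both genes the libraries of the media did not overlap in any line. Slc25a37, mitoferrin 1, which supplies iron for heme and iron-sulfur clusters, had 21.5 and 23.6 CPM in SL2i chr8A, against 41.8, 34.1 and 38.2 CPM in SL chr8A, and fell by 0.75 ± 0.084, 0.60 ± 0.088 and 0.67 ± 0.085 (7.82% of words shared). Slc25a28, mitoferrin 2, had 29.8 and 32.3 CPM in SL2i chr8A, against 22.2, 22.0 and 23.8 CPM in SL chr8A, and rose by 0.45 ± 0.088, 0.34 ± 0.095 and 0.22 ± 0.091. In clone 2 its libraries overlapped between media, and that call ended without SL clone 2 replicate 2 or SL2i clone 2 replicate 1. Of the words of Slc25a40, 5.1% are shared.

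Of the 3 uncoupling-protein-like members, chr8A had 1 higher and 2 lower, clone 1 had 3 lower, and clone 2 had 1 lower. Slc25a27, a relative of uncoupling proteins known from brain, had 5.22 and 4.15 CPM in SL2i chr8A, against 14.4, 14.8 and 15.6 CPM in SL chr8A, and fell by 1.67 ± 0.156, 1.66 ± 0.172 and 2.26 ± 0.176 in chr8A, clone 1 and clone 2. Slc25a30 fell by 0.24 ± 0.097 in chr8A and 0.26 ± 0.108 in clone 1, and in clone 2 its value was -0.04 ± 0.102 (not passed). Slc25a14 was the one member called in opposite directions, with 5.70 and 6.12 CPM in SL2i against 4.59, 4.35 and 4.63 CPM in SL in chr8A (0.39 ± 0.181), and 3.59 and 3.61 CPM in SL2i against 4.92, 5.08 and 4.83 CPM in SL in clone 1 (-0.46 ± 0.210). Both calls lie close to the threshold (adjusted p = 0.0496 in chr8A and 0.045 in clone 1, edgeR). In clone 2 the value of Slc25a14 was 0.03 ± 0.187 (not passed).

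Among members with little known transport, Slc25a34 and Slc25a35 rose and Slc25a43 and Slc25a46 fell in all 3 lines. Slc25a34 passed the filter only through SL2i, where it is higher, so a difference was built into its passing. It had 29 reads in SL2i clone 1 and 3 in SL clone 1, a ratio of 26.1 scaled for depth (exact 95% interval 8.09 to 134). Its log2 fold changes were 2.75 ± 0.637 in chr8A and 3.35 ± 0.629 in clone 2. Slc25a35 rose by 0.76 ± 0.196, 1.40 ± 0.205 and 1.56 ± 0.193, but 27.6% of its words are shared, and its exons overlap those of Rangrf on the other strand, so reads of the 2 genes may be mixed. Slc25a46, an outer membrane protein of mitochondrial fission, had 44.8 and 37.1 CPM in SL2i chr8A, against 75.4, 71.6 and 74.4 CPM in SL chr8A, and fell by 0.85 ± 0.062, 1.04 ± 0.065 and 1.03 ± 0.064 (7.55% of words shared). Slc25a43 fell by 1.29 ± 0.297, 1.13 ± 0.301 and 1.10 ± 0.311 at 1.45 and 1.48 CPM in SL2i chr8A and 2.88, 4.04 and 3.81 CPM in SL chr8A (9.29% shared). Slc25a53 passed as lower in clone 1 (-0.86 ± 0.302) and clone 2 (-1.16 ± 0.306), and Slc25a47, known from liver, passed in no line.

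Proteins that work beside the family were read from lists of genes outside it, whose counts stand against 72.8%, 73% and 73.1% of all genes called in chr8A, clone 1 and clone 2 and are no result about the lists. Of 13 tested inner membrane carriers and related proteins not matched by the symbol rule, chr8A had 10 higher and 3 lower, and each clone had 9 higher and 3 lower. Mpc1, a subunit of the mitochondrial pyruvate carrier, rose by 1.93 ± 0.237 in chr8A, to 5.72 ± 0.294 CPM in SL2i (SD, n = 2) against 1.49 ± 0.288 CPM in SL (n = 3), and by 1.88 ± 0.249 and 2.36 ± 0.225 in the clones. Sfxn2, a sideroflexin, rose by 1.53 ± 0.089 and Sfxn5 fell by 1.37 ± 0.204 in chr8A. Of 13 genes of the import route for carriers, chr8A had 7 higher and 2 lower, clone 1 had 7 higher and 3 lower, and clone 2 had 6 higher and 3 lower. Agk, a lipid kinase that is also a subunit of the import complex for carriers, rose by 2.20 ± 0.076 in chr8A, to 61.4 ± 3.21 CPM in SL2i against 13.4 ± 0.502 CPM in SL. Of 8 tested regulators of mitochondrial genes, chr8A and clone 1 each had 3 higher and 2 lower, and clone 2 had 2 higher and 4 lower. Gabpa, a transcription factor of the ETS family, rose by 0.73 ± 0.037 in chr8A, 0.62 ± 0.038 in clone 1 and 0.64 ± 0.037 in clone 2, and Esrra, an estrogen-related receptor, fell by 0.27 ± 0.102, 0.71 ± 0.115 and 0.52 ± 0.109.

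The SLC16A1 clones were set against chr8A within each medium to see which carriers differ in cells named for an altered pyruvate transporter. In SL, 6 members passed in clone 1 (3 higher, 3 lower) beside 16.6% of all genes (8.83% higher, 7.77% lower), and 11 in clone 2 (6 higher, 5 lower) beside 26.9% (14.3% higher, 12.6% lower). Both comparisons use the same chr8A libraries. Neither share stands far from that of all genes. Slc25a45 was higher, with 2.43, 2.60 and 2.87 CPM in clone 1 and 2.85, 2.19 and 1.80 CPM in clone 2, against 1.34, 1.40 and 1.63 CPM in chr8A (log2 fold change 0.85 ± 0.233 and 0.60 ± 0.228). Slc25a16 was higher by 0.25 ± 0.068 in clone 1 and 0.17 ± 0.065 in clone 2. Slc25a36 was lower by small but well-measured amounts, with 146, 157 and 151 CPM in clone 1 and 152, 150 and 152 CPM in clone 2, against 172, 173 and 178 CPM in chr8A (-0.20 ± 0.032 and -0.21 ± 0.031). Slc25a39 (-0.13 ± 0.032 and -0.13 ± 0.031) and Slc25a30 (-0.24 ± 0.075 and -0.33 ± 0.071) were also lower in both clones. In clone 1 the call of Slc25a39 ended without SL clone 1 replicate 3, and that of Slc25a30 without SL chr8A replicate 1 or SL clone 1 replicate 1. In clone 2 the calls of Slc25a45 and Slc25a16 ended without SL clone 2 replicate 2, among other libraries, and the clone 2 count was 7 without it.

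Some SL calls were made in a single clone. In clone 1, Slc25a24 was higher by 0.37 ± 0.061, with 42.7, 38.4 and 43.0 CPM against 35.0, 30.01 and 31.0 CPM in chr8A. In clone 2, Slc25a10 was higher by 0.39 ± 0.078, with 16.4, 16.2 and 16.8 CPM against 12.1, 13.0 and 12.6 CPM in chr8A. Other members that passed in clone 2 were Slc25a38 (0.26 ± 0.064), Slc25a32 (0.18 ± 0.057), Slc25a5 (0.08 ± 0.027), Slc25a1 (-0.15 ± 0.036) and Slc25a35 (-0.44 ± 0.168). Without SL clone 2 replicate 1 the calls of Slc25a5 and Slc25a35 ended, and without SL clone 2 replicate 2 those of Slc25a32 and Slc25a35. The clones themselves differed in SL for 4 members, beside 4.4% of all genes (1.69% higher, 2.71% lower). Clone 2 was higher than clone 1 for Slc25a10 (0.32 ± 0.082) and Slc25a5 (0.12 ± 0.028) and lower for Slc25a24 (-0.30 ± 0.061) and Slc25a1 (-0.12 ± 0.037). Only 1 member passed there without SL clone 1 replicate 1. Between the clones, the call of Slc25a1 ended in 7 of 13 settings, DESeq2 among them, and that of Slc25a10 in 3 of 13. Slc25a4, Slc25a3, Slc25a40, Slc25a51, Slc25a33, Slc25a28, Slc25a37 and Slc25a31 passed against chr8A in neither clone in SL. For Slc25a4 the 95% interval was -0.02 to 0.09 in clone 1 and -0.01 to 0.10 in clone 2, and for Slc25a51 it was -0.03 to 0.15 and -0.12 to 0.06.

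**Figure D4:**
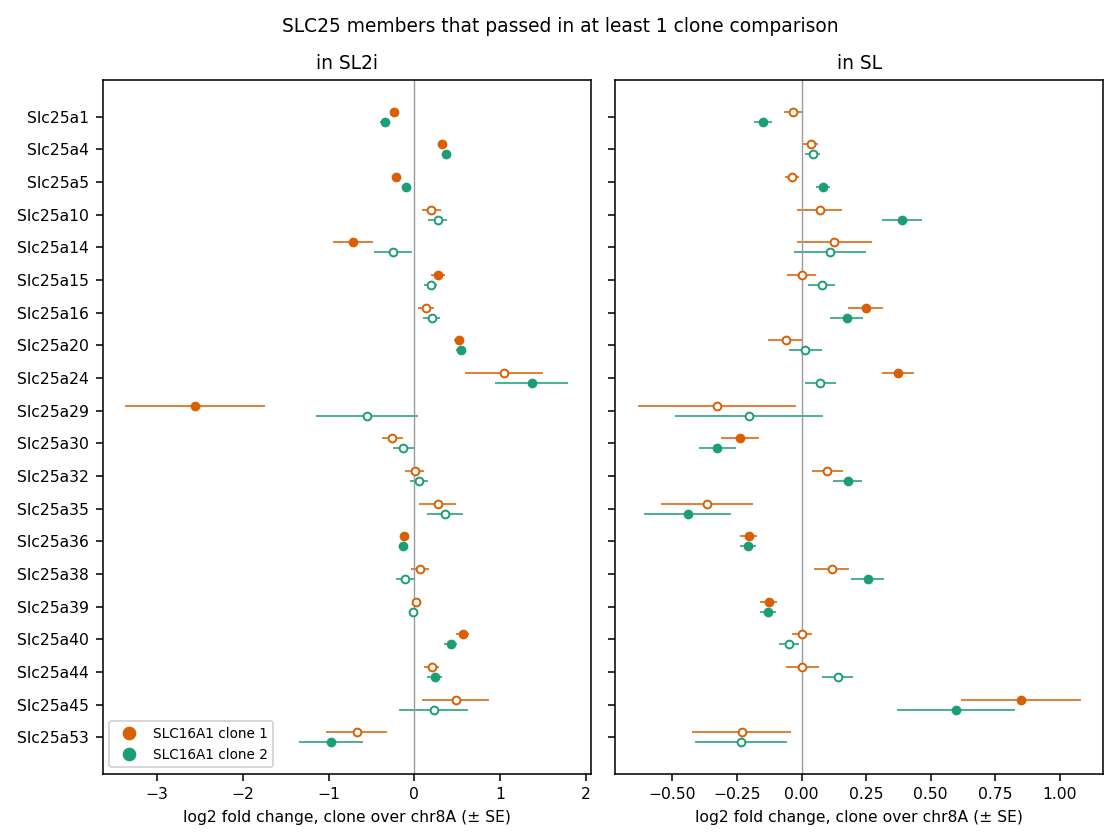
Log2 fold change over chr8A with its standard error in SL2i (left) and SL (right) for the SLC25 members that passed in at least 1 of the 4 clone comparisons, in SLC16A1 clone 1 (orange) and clone 2 (green); filled points passed at an adjusted p under 0.05, and the panels have different horizontal scales. Slc25a4, Slc25a20 and Slc25a40 lie right of 0 in SL2i and near 0 in SL.

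In SL2i, 9 members passed in clone 1 (4 higher, 5 lower) beside 22.4% of all genes (10.4% higher, 12.1% lower), and 9 in clone 2 (5 higher, 4 lower) beside 20.6% (9.74% higher, 10.8% lower), again with shared chr8A libraries. Slc25a20 was higher, with 176 and 172 CPM in clone 1 and 181 and 172 CPM in clone 2, against 124 and 118 CPM in chr8A (0.52 ± 0.055 and 0.55 ± 0.055). Slc25a40 had 53.0 and 53.1 CPM in clone 1 and 48.8 and 47.7 CPM in clone 2, against 35.9 and 35.8 CPM in chr8A (0.56 ± 0.075 and 0.43 ± 0.076). Slc25a4 had 138 and 146 CPM in clone 1 and 151 and 143 CPM in clone 2, against 115 and 113 CPM in chr8A (0.32 ± 0.047 and 0.37 ± 0.047). For these 3 genes every clone library lay above both chr8A libraries. Slc25a1 was lower, with 115 and 109 CPM in clone 1 and 103 and 105 CPM in clone 2, against 127 and 136 CPM in chr8A (-0.24 ± 0.052 and -0.35 ± 0.053). Slc25a36 (-0.12 ± 0.038 and -0.13 ± 0.038) and Slc25a5 (-0.22 ± 0.036 and -0.09 ± 0.035) were lower in both clones. Both calls of Slc25a36 ended without SL2i chr8A replicate 2 and at equal depth. Its clone 1 call also ended without either clone 1 library, and its clone 2 call without SL2i clone 2 replicate 1. The call of Slc25a5 in clone 2 ended without SL2i chr8A replicate 1 or either clone 2 library.

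Calls of a single clone in SL2i rested mostly on low counts. Slc25a24 had 1.78 and 2.02 CPM in clone 2 and 0.870 and 0.592 CPM in chr8A (1.37 ± 0.429), a call that ended without SL2i chr8A replicate 2 or SL2i clone 2 replicate 2. Slc25a29 had 3 reads in clone 1 and 19 in chr8A, 6.10-fold lower when scaled for depth (exact 95% interval 1.80 to 32.2), and that call ended without SL2i chr8A replicate 2 or either clone 1 library. Slc25a14 (-0.71 ± 0.235) and Slc25a15 (0.28 ± 0.079) passed in clone 1, and Slc25a44 (0.24 ± 0.090) and Slc25a53 (-0.97 ± 0.369) in clone 2. Of these, Slc25a14 and Slc25a53 ended without any one of the 4 libraries of their comparison, Slc25a44 ended without either chr8A library or SL2i clone 2 replicate 2, and Slc25a15 ended without SL2i chr8A replicate 2. Between the clones in SL2i, 0 members passed with edgeR, beside 0.157% of all genes (0.0873% higher, 0.0699% lower), while 5 had an unadjusted p under 0.05 and DESeq2 called Slc25a5 alone. Slc25a39, Slc25a3, Slc25a51, Slc25a32, Slc25a33, Slc25a28, Slc25a37 and Slc25a31 passed against chr8A in neither clone in SL2i. For Slc25a39 the 95% interval was -0.06 to 0.10 in clone 1 and -0.09 to 0.07 in clone 2.

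Among the genes beside the family, 3 passed in the same direction in both clones in both media. The share of all genes that did so was not computed, so this count is no result about the lists. Both comparisons in a medium use the same chr8A libraries. Ppargc1b, a coactivator of mitochondrial genes, was lower in SL by 0.42 ± 0.129 in clone 1 and 0.33 ± 0.121 in clone 2, and in SL2i by 0.65 ± 0.219 and 0.82 ± 0.223. Timm22, the channel subunit of the carrier import complex, was higher in SL by 0.24 ± 0.063 in clone 1 and 0.26 ± 0.060 in clone 2, and in SL2i by 0.28 ± 0.093 and 0.32 ± 0.092. Ucp2, an uncoupling protein of the same carrier family under another symbol, was lower in SL by 0.14 ± 0.036 and 0.19 ± 0.035, and in SL2i by 0.32 ± 0.047 and 0.39 ± 0.048. Of the 13 tested carriers outside the symbol rule, clone 1 had 0 higher and 3 lower in SL and clone 2 had 1 higher and 4 lower. In SL2i they were 1 higher and 3 lower in clone 1, and 0 higher and 2 lower in clone 2. Of the 13 import genes, clone 1 had 2 higher and 0 lower in SL and clone 2 had 7 higher and 1 lower. In SL2i the import genes were 1 higher and 3 lower in clone 1, and 1 higher and 1 lower in clone 2. Of all genes, 16.6% and 26.9% passed in SL in clones 1 and 2 (for clone 2, 14.3% up and 12.6% down). In SL2i these shares were 22.4% and 20.6%.

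Whether the medium acted alike in the clones and chr8A was tested with an interaction term, the log2 effect of SL2i over SL in the clone minus that in chr8A. It passed for 8 members in clone 1 (5 higher, 3 lower) beside 17% of all genes (7.78% higher, 9.24% lower) and for 8 in clone 2 (5 higher, 3 lower) beside 16.9% (7.69% higher, 9.18% lower), with shared chr8A libraries. The rise of Slc25a20 was larger in the clones, by 0.58 ± 0.087 in clone 1 and 0.53 ± 0.083 in clone 2. The falls of Slc25a40 (0.56 ± 0.085 and 0.48 ± 0.085) and Slc25a4 (0.28 ± 0.056 and 0.33 ± 0.055) were smaller in the clones. Slc25a1 (-0.21 ± 0.064 and -0.20 ± 0.064) and Slc25a5 (-0.18 ± 0.045 and -0.18 ± 0.045) had lower interaction values in both clones. In clone 1, Slc25a15 (0.28 ± 0.097), Slc25a39 (0.15 ± 0.052) and Slc25a14 (-0.84 ± 0.277) also passed, and in clone 2 Slc25a24 (1.29 ± 0.434), Slc25a35 (0.80 ± 0.271) and Slc25a38 (-0.36 ± 0.124). For Slc25a36 the interval of the difference was -0.01 to 0.18 in clone 1 and -0.02 to 0.17 in clone 2, and for Slc25a51 it was -0.40 to -0.01 (adjusted p = 0.15) and -0.09 to 0.28. In clone 1 the count was 4 without SL2i clone 1 replicate 2 and 5 without SL clone 1 replicate 3 or SL2i clone 1 replicate 1, and in clone 2 it was 5 without SL chr8A replicate 3 or SL2i chr8A replicate 2. Without SL2i clone 1 replicate 2 the clone 1 calls of Slc25a1, Slc25a5, Slc25a14 and Slc25a15 ended. Without SL2i chr8A replicate 2 the clone 2 calls of Slc25a1, Slc25a24, Slc25a35 and Slc25a38 ended. The clone 1 call of Slc25a39 ended in 6 of 17 settings, DESeq2 among them. That of Slc25a1 ended in 5 of 17 settings in clone 1 and in 7 of 17 in clone 2.

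The comparison of LbNOX with vector cells asks which carriers change with an added NADH oxidase. No difference in the family was detected: 0 of 40 tested members passed with edgeR, beside 0.0372% of 16119 genes (0.0062% higher, 0.031% lower), 0 members had an unadjusted p under 0.05 (605 of all genes did) and DESeq2 called 0. Log2 fold changes ran from -0.24 for Slc25a47 to 0.27 for Slc25a53, and the 95% intervals of all 40 spanned -0.85 to 0.95. The 3 members with the smallest p were Slc25a15 (0.12 ± 0.067), Slc25a23 (-0.12 ± 0.073) and Slc25a53 (0.27 ± 0.179), each with overlapping libraries and an adjusted p of 1.0.

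**Figure D5:**
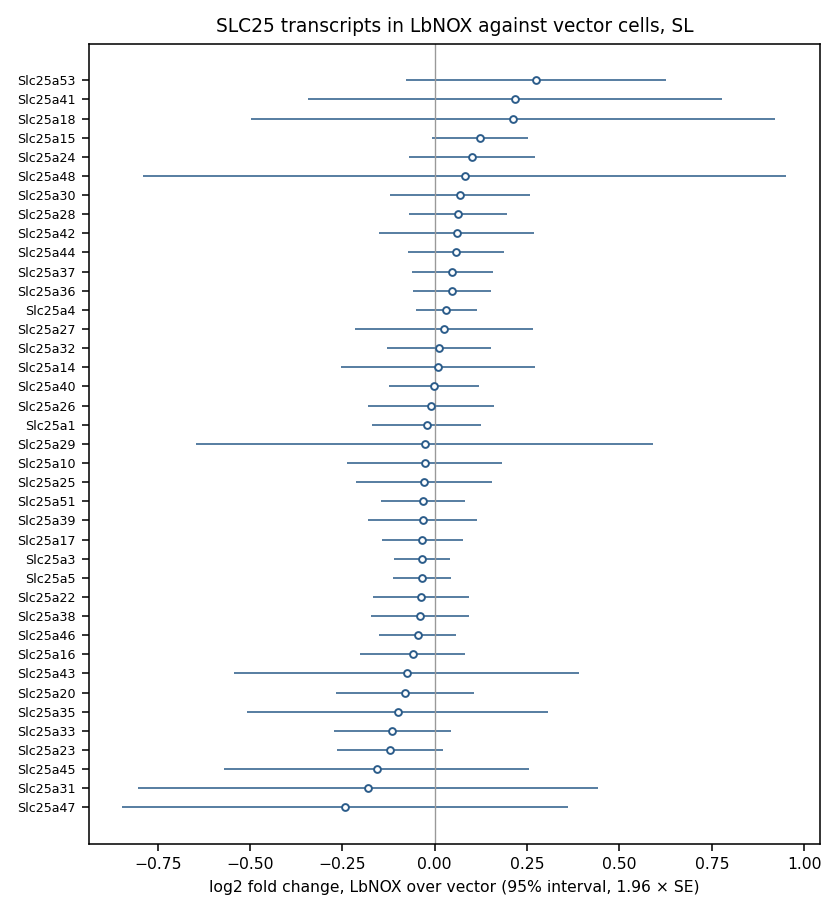
Log2 fold change of LbNOX over vector cells in SL for tested SLC25 members except 1 not reported here, with 95% intervals (3 libraries a group). All points lie between -0.24 and 0.27, and the intervals of low-count members such as Slc25a48 and Slc25a18 are the widest.

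For the abundant carriers these intervals were narrow. Slc25a51, whose cargo NAD+ is the product of LbNOX, had 44.8, 43.1 and 45.4 CPM in LbNOX cells and 46.3, 46.6 and 43.0 CPM in vector cells, a log2 difference of -0.03 (95% interval -0.15 to 0.08). Slc25a4 had 199, 193 and 186 CPM in LbNOX cells and 191, 185 and 190 CPM in vector cells, a difference of 0.03 (-0.05 to 0.11). The libraries of the groups overlapped for both genes. Slc25a5 differed by -0.04 (-0.11 to 0.04) and Slc25a3 by -0.03 (-0.11 to 0.04), and Slc25a1 by -0.02 (-0.17 to 0.13). Slc25a36 differed by 0.05 (-0.06 to 0.15), Slc25a33 by -0.12 (-0.27 to 0.04), Slc25a32 by 0.01 (-0.13 to 0.15) and Slc25a31, the least counted of these, by -0.18 (-0.80 to 0.44). For the iron and glutathione carriers the differences were 0.05 (-0.06 to 0.16) for Slc25a37, 0.06 (-0.07 to 0.20) for Slc25a28, -0.03 (-0.18 to 0.12) for Slc25a39 and 0.00 (-0.12 to 0.12) for Slc25a40. The summed level of the family was 2543 to 2578 CPM in LbNOX cells and 2560 to 2605 CPM in vector cells. Of the lists beside the family, 0 genes passed in this comparison.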

How the data were processed

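Poly(A) RNA of mouse ESCs was sequenced from 500 ng of RNA with a stranded kit and 8 PCR cycles, per the labels' protocols. The authors aligned reads to GRCm39 with DRAGEN 3.10 and deposited raw counts per gene from featureCounts of Subread in 2 tables, per the submitters' processing notes. Whether counting used strand is not stated in those notes. Gene lengths came from the deposited tables.

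Each table was normalized and fitted separately in R 4.3.3 with edgeR 4.0.16 (filterByExpr with a minimum count of 10, TMM factors, robust quasi-likelihood F test, 1 mean per group). The fits covered 16119 genes in 6 libraries and 17178 genes in 15 libraries. P-values were adjusted by Benjamini and Hochberg over all genes tested, with calls made below 0.05. CPM values are TMM-normalized, and log2 fold changes carry standard errors. Exact binomial intervals and floors of 3 counts cover counting error only. Tables hold 19 rows without a symbol, which stayed in the tests.

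The members, the lists and the rule for naming genes were chosen with earlier results of these data known. Named per comparison were up to 5 called members in each direction with the largest change, the 3 with the smallest p where fewer than 3 were called, 13 fixed members of the ADP/ATP, phosphate, citrate, pyrimidine, iron, glutathione, NAD+ and folate carriers, and up to 5 interactions a clone. Other members were named after their values were seen, and 1 member is counted but not reported by name here. Shared sequence is the percent of 30-base words of a gene's GENCODE M21 transcripts (GRCm38) that occur in another gene, and is given from 5%. Promoter windows are RefSeq's, GRCm38.p6. Replicate numbers were not used as pairs, since no comparison had every same-number correlation of deviations over 0.1. Where both groups held 2 libraries, the deviations mirror each other and give a single correlation, so this check cannot exclude pairing. Counts of 2 libraries of a group differed beyond sampling noise in all groups (chi-square per degree of freedom 1.85 to 13.3). Alternatives were DESeq2 1.42.0, RLE factors, a replicate block, a filter at 1 CPM in 3 libraries or none at all, only the compared groups, each library left out, and, added after the data were seen, thinning to equal depth and leaving out SL vector replicate 2 with SL LbNOX replicate 3, which lay apart on the first component. The pipeline was tested on simulated data.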

Additional observations from a re-analysis of the deposited data

Results flagged for a closer look

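By the interaction test of edgeR, the effect of the medium differed between clone 1 and chr8A for 8 members, beside 17% of all genes. For clone 2 it differed for 8 members, beside 16.9% of all genes. These counts are no result about the family. The interactions of both clones use the same chr8A libraries and are not independent. In clone 1 the named interactions were 0.58 ± 0.087 for Slc25a20, 0.56 ± 0.085 for Slc25a40, 0.28 ± 0.056 for Slc25a4, 0.28 ± 0.097 for Slc25a15 and -0.84 ± 0.277 for Slc25a14, on the log2 scale. In clone 2 they were 1.29 ± 0.434 for Slc25a24, 0.80 ± 0.271 for Slc25a35, 0.53 ± 0.083 for Slc25a20, 0.48 ± 0.085 for Slc25a40 and -0.36 ± 0.124 for Slc25a38. Those of Slc25a20, Slc25a40 and Slc25a4 passed in both clones under every alternative run. Those of Slc25a14 and Slc25a24 did not pass when any one of the 4 SL2i libraries of the comparison was left out, or at equal depth. The call of Slc25a15 in clone 1 ended in 6 of 17 settings. In clone 2 that of Slc25a35 ended in 6 and that of Slc25a38 in 7 of 17 settings. DESeq2 was among the settings that ended each of these 3 calls.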

How the results depend on the processing

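No named call changed direction in any alternative that gave it a value. Some named values that did not pass changed sign between alternatives. Slc25a31 ran from -0.49 to 0.06 for LbNOX against vector, and Slc25a33 from -0.22 to 0.07 for the medium in chr8A. RLE factors ended 1 call and no filter 11 among 212 named values, the 1 CPM filter 0 among 210, DESeq2 16 among 195, the compared groups alone 5 among 191 and equal depth 27 among 194. Leaving out 1 library ended 95 calls among 1244 values. A block for the replicate number ended 0 calls among the named values. The counts with it were 33 members for the medium in clone 1, 12 and 10 for clone 2 against chr8A in SL and SL2i, and as in the report elsewhere. With DESeq2, 7 members passed for clone 2 against chr8A in SL, 1 for clone 2 against clone 1 in SL2i and 5 for the interaction in clone 2. Leaving out 1 library at a time gave 0 to 0 members for LbNOX, 24 to 32, 27 to 33 and 25 to 29 for the medium in chr8A, clone 1 and clone 2, 5 to 7 and 7 to 11 for clones 1 and 2 against chr8A in SL, 6 to 8 for each clone in SL2i, 1 to 4 and 0 to 0 between the clones in SL and SL2i, and 4 to 8 and 5 to 9 for the interactions. At equal depth, chosen after seeing the data, the counts were 25, 29 and 29 for the medium in chr8A, clone 1 and clone 2, 3 and 6 for clones 1 and 2 against chr8A in SL, 5 for clone 2 in SL2i, 2 between the clones in SL, 5 for the interaction in clone 1 and 5 in clone 2. Without SL vector replicate 2 and SL LbNOX replicate 3, also chosen after seeing the data, no named value changed its call. Calls of Slc25a45, Slc25a16, Slc25a32 and Slc25a35 in clone 2 in SL and of Slc25a5, Slc25a44 and Slc25a53 in clone 2 in SL2i ended under several settings. Why these calls ended was not tested. Low read counts limit Slc25a2, Slc25a21, Slc25a29, Slc25a31 and Slc25a34. Equal depth also ended calls of better-counted members, such as Slc25a10, Slc25a30 and Slc25a38 in clone 2 against chr8A in SL.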
